A study of Mus musculus with 7 samples.

Results

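The mouse genes described here are zinc finger genes whose symbol is exactly Zfp followed by a 3-digit number of 600 or more. They are 139 of the 19938 genes measured. Each was read through a probe set that the array annotation gives to 1 gene symbol, and for a gene with several, the probe set brightest on average over the 7 arrays stands for it. The symbol is a catalogue number, so the rule takes in genes of different function, and its members were selected by symbol. The family itself was chosen from measured values, the differences between the KSR iPS lines and fibroblasts, in which Zfp980 and Zfp640 stand out. Those differences are therefore given as a description, and nothing is supported with them. At the edge of the rule, Zfp600 lay 5.78 log2 units higher in the iPS lines in KSR than in fibroblasts and is inside, while Zfp599 lay 0.95 higher and is outside. The highest number measured was Zfp991.

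Many mouse proteins with a high Zfp number pair an array of DNA-binding zinc fingers with a KRAB domain. The fingers choose the DNA sequence, and the KRAB domain recruits the corepressor Trim28, which brings the histone methyltransferase Setdb1, heterochromatin proteins and DNA methylation to the site. In mouse embryonic stem cells this machinery is known for silencing retrotransposons, and its zinc finger genes lie in clusters of close copies that differ between mouse strains.

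RNA from 7 cell cultures was hybridised to 7 Affymetrix whole transcript arrays. Induced pluripotent stem (iPS) lines O4-1, O4-2 and O4-4, made from mouse embryonic fibroblasts (MEFs) infected with Oct4, were grown in KSR (the usual abbreviation of knockout serum replacement), 1 array each. Line O4-1 was also grown in N2B27 with 2i, a serum-free medium with a pair of kinase inhibitors, and OG2 embryonic stem (ES) cells in the same medium, 1 array each. MEFs from 129/OG2 embryos of 13.5 days were grown in iCD1, a medium the labels give by name only, and in FBS medium, 1 array each. The iPS samples carry no label for genetic background, and whether a line is 1 clone or the cultures were separate is not given. Titles and growth conditions set the groups. Other label fields disagree with them: all 7 descriptions say iPS cells soon after infection, the ES source reads fibroblasts, and the iPS source names iCD1.

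The cell types were checked with marker lists. The median of 10 pluripotency genes was 9.84 to 10.03 in the KSR lines, 9.88 in iPS cells in 2i and 9.74 in ES cells, against 4.04 in MEFs in iCD1 and 3.99 in MEFs in FBS. The median of 12 fibroblast genes was 6.06 to 6.78 in the KSR lines, 5.39 in iPS cells in 2i and 6.10 in ES cells, against 9.75 and 8.76 in MEFs in iCD1 and FBS. For each of the 12 fibroblast genes the KSR mean lay below the mean of both MEF arrays. Limma called 9 of them lower at an adjusted p under 0.05, against 14.3% of all genes. Against the FBS MEFs alone, Dcn (6.78) was higher in lines O4-2 and O4-4, at 6.99 and 7.54, and lower in O4-1, at 6.63. Lum (6.06 in FBS MEFs) was higher in line O4-4, at 6.87, and lower in O4-1 and O4-2, at 5.94 and 5.37. In ES cells Dcn had 7.25 and Lum 6.37, both above the FBS MEFs. In iPS cells in 2i they had 5.91 and 4.56, both below. In MEFs in iCD1, Dcn had 9.61 and Lum 9.94. Against the mean of both MEF arrays, all 12 fibroblast genes were lower in ES cells, 10 of them by 2-fold or more (9.26% of all genes). The 8 primitive endoderm and trophoblast genes had medians between 4.91 and 5.34 on all arrays. Only 3 of 9 genes of 2-cell-like cells had a probe set used here, and their medians were 3.03 to 3.51 on all arrays. All values are the deposited log2 expression values, whose array medians lay between 4.97 and 5.03. No signal over background comes with them, so a value near 2 is low but is not shown to be zero.

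Between the KSR lines and the mean of both MEF arrays, a few members stood several log2 units higher while the family as a whole lay close to 0. The family's median difference was 0.15, against 0.00 over all genes, and 89 of the 139 members (64.0%) lay within 0.5 of zero, against 65.0% of all genes. In the KSR lines 93 members (66.9%, against 50.1% of all genes) were higher and 46 lower than in MEFs. Of the members, 17 (12.2%) were 2-fold or more higher, against 7.43% of all genes, and 5 (3.60%) were 2-fold or more lower, against 9.46%. In either direction the 22 members make 15.8%, against 16.9% of all genes. By limma with Benjamini-Hochberg adjustment over all genes, 24 members were called higher (17.3%, against 12.1%) and 8 lower (5.76%, against 14.3%), which is 32 in all (23.0%, against 26.4%). These counts belong to the comparison in which the family was proposed, and nothing is read from them. Limma called 0 members, and 0.0% of all genes, without line O4-1 or without line O4-2, where 38 members (27.3%, against 29.1% of all genes) and 53 members (38.1%, against 34.7%) had an unadjusted p under 0.05. Without line O4-4 it called 16 (11.5%, against 13.9%). In mixed RNA, fewer cells expressing a gene and less RNA per cell cannot be told apart.

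**Figure D1:**
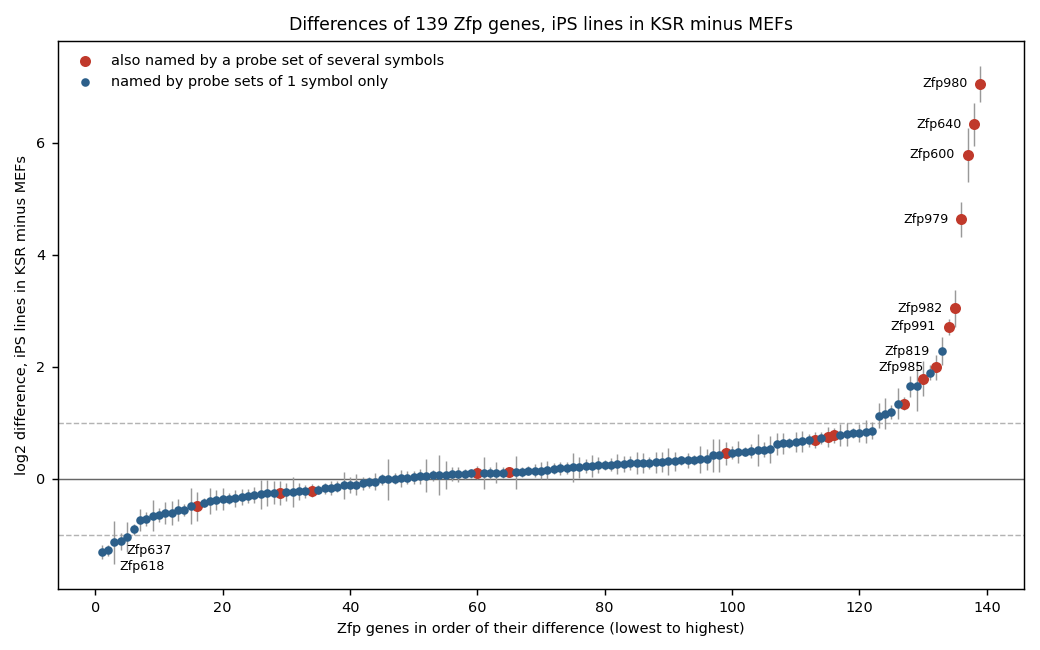
Log2 difference of each of the 139 members between the iPS lines in KSR (mean of 3 arrays) and MEFs (mean of 2 arrays), ranked from the lowest to the highest, with limma's standard error as a bar. Red points are members that a probe set of several symbols also names, dashed lines mark 2-fold. A few members at the right end lie far above the rest, with Zfp980 at 7.05, and 117 of 139 lie between the dashed lines.

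Of the 10 largest differences in the family, 6 belonged to a stretch of chromosome 4. By the RefSeq gene table, 7 members lie there: Zfp980, Zfp600, Zfp991, Zfp982, Zfp985, Zfp979 and Zfp933. This grouping was made after their values were seen. In the KSR lines 6 of the 7 were 2-fold or more higher than in MEFs, by 1.99 to 7.05 log2 units, and Zfp933 was the exception. For 5 of the 6, the RefSeq table used here has a promoter window, 250 bases before to 50 after the start of transcription in build GRCm38.p6. The windows of these 5 genes and that of Zfp933 are printed to let the near-identity of the copies be read directly. Capitals mark 3 runs of 21 bases, the longest that all 5 share, and Zfp933 holds none of them. Each is written 5′ to 3′ on the gene's own strand. The positions are chr4:145670447-145670746 on the plus strand for Zfp980, chr4:146156577-146156876 plus for Zfp600, chr4:147492167-147492466 plus for Zfp982, chr4:147553027-147553326 plus for Zfp985, chr4:147642459-147642758 minus for Zfp979 and chr4:147848369-147848668 minus for Zfp933. Zfp982 has 3 windows in RefSeq and Zfp600 has 2, and for each the window most like that of Zfp980 is printed.
Zfp980: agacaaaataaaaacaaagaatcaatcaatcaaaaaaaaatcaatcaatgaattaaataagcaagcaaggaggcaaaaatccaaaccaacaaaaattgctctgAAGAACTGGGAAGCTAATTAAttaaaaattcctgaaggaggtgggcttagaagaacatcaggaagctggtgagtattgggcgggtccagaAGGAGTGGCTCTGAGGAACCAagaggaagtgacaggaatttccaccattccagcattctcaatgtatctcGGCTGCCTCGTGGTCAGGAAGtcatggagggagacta
Zfp600: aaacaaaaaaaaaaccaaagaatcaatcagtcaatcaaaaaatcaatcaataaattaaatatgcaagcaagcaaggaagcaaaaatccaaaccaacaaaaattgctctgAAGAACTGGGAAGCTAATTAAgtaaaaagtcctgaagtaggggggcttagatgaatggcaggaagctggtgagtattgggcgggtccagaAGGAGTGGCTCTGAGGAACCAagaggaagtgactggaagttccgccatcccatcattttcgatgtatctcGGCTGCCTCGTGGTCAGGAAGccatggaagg
Zfp982: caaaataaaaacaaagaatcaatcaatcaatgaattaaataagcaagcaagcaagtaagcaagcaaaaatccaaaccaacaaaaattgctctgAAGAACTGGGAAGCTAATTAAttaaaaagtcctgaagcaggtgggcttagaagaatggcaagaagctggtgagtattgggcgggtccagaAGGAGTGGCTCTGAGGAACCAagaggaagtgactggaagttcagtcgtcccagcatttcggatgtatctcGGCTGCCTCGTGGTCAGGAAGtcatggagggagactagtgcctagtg
Zfp985: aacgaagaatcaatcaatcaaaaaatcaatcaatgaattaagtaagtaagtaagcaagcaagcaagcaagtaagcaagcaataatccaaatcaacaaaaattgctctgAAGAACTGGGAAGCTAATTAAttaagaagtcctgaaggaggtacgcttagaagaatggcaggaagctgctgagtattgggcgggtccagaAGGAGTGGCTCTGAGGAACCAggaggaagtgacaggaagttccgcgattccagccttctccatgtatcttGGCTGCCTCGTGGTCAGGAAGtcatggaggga
Zfp979: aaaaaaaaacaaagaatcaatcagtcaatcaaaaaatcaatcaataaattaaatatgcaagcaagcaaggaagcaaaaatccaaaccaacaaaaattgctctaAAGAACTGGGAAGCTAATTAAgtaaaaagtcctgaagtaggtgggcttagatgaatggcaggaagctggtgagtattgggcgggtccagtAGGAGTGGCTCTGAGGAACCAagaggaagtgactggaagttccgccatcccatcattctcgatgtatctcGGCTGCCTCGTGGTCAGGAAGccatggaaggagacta
Zfp933: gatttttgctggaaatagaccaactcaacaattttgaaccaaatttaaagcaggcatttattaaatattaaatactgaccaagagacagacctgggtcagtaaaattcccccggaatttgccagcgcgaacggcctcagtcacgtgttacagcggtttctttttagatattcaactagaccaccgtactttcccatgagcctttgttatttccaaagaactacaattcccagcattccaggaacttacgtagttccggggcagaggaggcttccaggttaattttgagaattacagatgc

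In the 10 pairs of these 5 windows, which were picked for likeness where a gene has several, 86.0% to 96.3% of the 300 bases were identical after global alignment. Over all 24 pairs between windows of different genes among the 5, identity ran between 51.3% and 96.3%. The window of Zfp933 matched them at 55.0% to 57.3%. Among the other 114 members with a window, identity with the Zfp980 window was 36.0% to 61.7%, with a median of 54.8%. The 3 runs were searched on both strands in the windows of 27025 genes. The run AAGAACTGGGAAGCTAATTAA was found in 9 genes (0.0333%), and AGGAGTGGCTCTGAGGAACCA was found in the same 9: Rex2, Zfp534, Zfp600, Zfp979, Zfp980, Zfp982, Zfp985, Zfp987 and Zfp988. The run GGCTGCCTCGTGGTCAGGAAG was found in 7 genes (0.0259%), the 5 members with Rex2 and Zfp981. All of these genes are on chromosome 4, and only the 5 members among them had a probe set of their own in the values used here. That the runs are shared describes the sequences and names no factor that binds there.

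**Figure D2:**
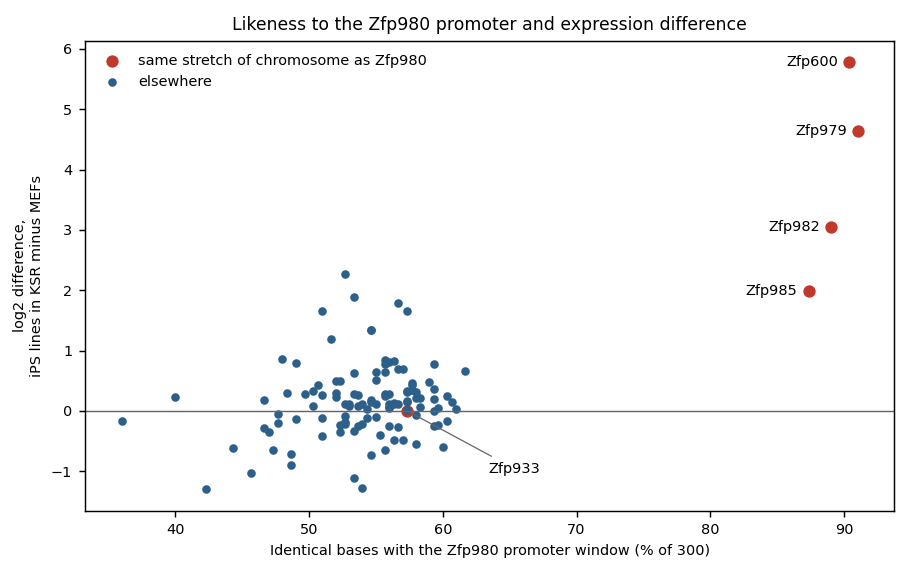
Share of the 300 bases of each member's promoter window (the most like one where it has several) identical with the window of Zfp980 (horizontal axis, percent) against its log2 difference between the iPS lines in KSR and MEFs (vertical axis). Zfp985, Zfp982, Zfp600 and Zfp979, at 87.3% to 91.0% identity, lie between 1.99 and 5.78, and Zfp933, of the same stretch, lies at 57.3% and 0.00.

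Zfp980 had 9.89, 9.00 and 9.20 in lines O4-1, O4-2 and O4-4 in KSR, 8.81 in iPS cells in 2i and 9.10 in ES cells, against 2.62 and 2.01 in MEFs in iCD1 and FBS. The KSR minus MEF difference was 7.05 ± 0.32 (standard error from limma, 3 arrays against 2), the largest in the family. Every pluripotent array lay more than 6 log2 units above both MEF arrays. Zfp600 had 8.04, 6.74 and 6.97 in the KSR lines in the same order, 7.61 in iPS cells in 2i and 7.91 in ES cells, against 1.66 and 1.28 in MEFs in iCD1 and FBS. Its difference was 5.78 ± 0.48. The MEF values of both genes are among the low values of these arrays, and how such values were treated upstream is not stated in the labels.

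Zfp979 is also known as Ssm1b, a strain-specific modifier that directs DNA methylation of a transgene early in mouse development. It had 9.57, 8.69 and 9.05 in the KSR lines, 8.69 in iPS cells in 2i and 8.41 in ES cells, against 4.95 and 3.99 in MEFs in iCD1 and FBS, a difference of 4.63 ± 0.31. Zfp982 had 6.59, 5.67 and 5.91 in the KSR lines, 5.40 in iPS cells in 2i and 5.63 in ES cells, against 3.36 and 2.67 in MEFs in iCD1 and FBS, a difference of 3.04 ± 0.33. In both genes the 2 groups do not overlap. Zfp991 had 8.02, 7.75 and 7.74 in the KSR lines, 7.46 in iPS cells in 2i and 7.72 in ES cells, against 5.65 and 4.60 in MEFs in iCD1 and FBS, a difference of 2.71 ± 0.13. Zfp985 had 6.33, 5.73 and 5.97 in the KSR lines, 5.71 in iPS cells in 2i and 6.08 in ES cells, against 4.24 and 3.80 in MEFs in iCD1 and FBS, a difference of 1.99 ± 0.22. Its other single-symbol probe sets gave 3.43 and 2.16, and the mean of all gave 2.53, so the size depends on the probe set. Pluripotent cells were above MEFs on every array for these genes too. Zfp933 had 5.12, 5.24 and 5.29 in the KSR lines, 5.41 in iPS cells in 2i and 5.19 in ES cells, against 5.45 and 4.98 in MEFs in iCD1 and FBS. Its pluripotent values fell between the 2 MEF values.

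Near-identical copies make the identity of single genes uncertain in this stretch. The array also holds 6 probe sets that the annotation gives to several genes of the stretch at once, and they were 2.62 to 6.60 log2 units higher in the KSR lines than in MEFs. The largest of these differences came from a probe set named for Rex2, Zfp981, Zfp980, Zfp600, Zfp987 and Zfp979, at 11.64, 11.06 and 11.28 in the KSR lines, 11.08 in iPS cells in 2i and 11.15 in ES cells, against 4.87 and 4.57 in MEFs in iCD1 and FBS. Probes of a single-symbol probe set can still bind transcripts of a close copy, and the share of signal from each copy was not tested. Across the family, 18 members are also named on a probe set shared with other genes. Of these 18, 9 were 2-fold or more higher in the KSR lines and none 2-fold lower, with a median of 1.06. Of the other 121, 8 were 2-fold or more higher and 5 lower, with a median of 0.12 and a highest value of 2.28, that of Zfp819.

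Zfp640 had the second-largest difference, and no probe set of the array names it together with genes of that stretch. It had 9.07, 8.06 and 8.98 in the KSR lines, 8.76 in iPS cells in 2i and 8.82 in ES cells, against 2.26 and 2.48 in MEFs in iCD1 and FBS. The difference was 6.33 ± 0.39, and the groups were more than 5 log2 units apart on every array. Its other single-symbol probe sets gave 6.85 and 6.80, and 2 that it shares with 2410141K09Rik gave 6.05 and 6.35. The gene ID of Zfp640 was the only one of the 139 not found in the RefSeq gene table, so it has no promoter window here.

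The rest of the 10 largest differences came from 3 genes. Zfp819 encodes a KRAB zinc finger protein reported in mouse pluripotent cells to act with Trim28 on endogenous retroelements. It had 6.19, 5.54 and 6.09 in the KSR lines, 5.66 in iPS cells in 2i and 5.41 in ES cells, against 3.41 and 3.91 in MEFs in iCD1 and FBS, a difference of 2.28 ± 0.25. No shared probe set names it. Zfp961 had 7.34, 7.40 and 7.65 in the KSR lines, 7.25 in iPS cells in 2i and 7.83 in ES cells, against 5.27 and 5.87 in MEFs in iCD1 and FBS, a difference of 1.90 ± 0.14. Zfp975 had 6.82, 5.95 and 6.29 in the KSR lines, 6.79 in iPS cells in 2i and 7.02 in ES cells, against 5.00 and 4.13 in MEFs in iCD1 and FBS, a difference of 1.79 ± 0.31. For all 3 genes the pluripotent arrays lay above both MEF arrays. Zfp975 also stands on 3 shared probe sets with EU599041 and other copies, which gave larger differences of 3.31 to 4.12.

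**Figure D3:**
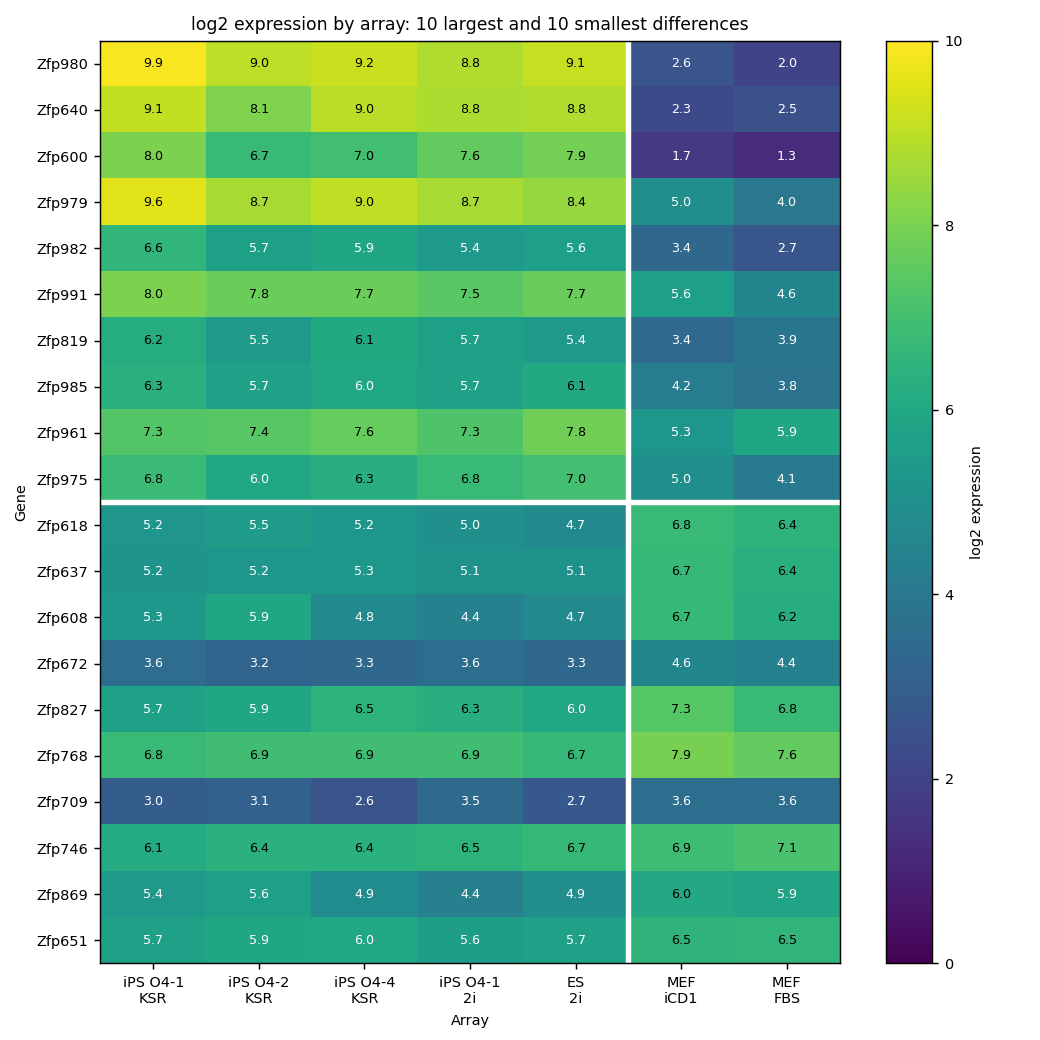
Log2 expression of the 10 members with the largest and the 10 with the smallest KSR minus MEF difference on each of the 7 arrays, as a colour scale with the value in each cell, pluripotent cultures left and MEFs right. Zfp980, Zfp640, Zfp600 and Zfp979 show the widest contrast, and the lower 10 genes differ by 0.64 to 1.30.

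The other 7 members past 2-fold higher were Zfp951 at 1.66, Zfp710 at 1.65, Zfp850 and Zfp944 at 1.34, Zfp830 at 1.20, Zfp750 at 1.16 and Zfp930 at 1.13. Zfp830 is needed for the survival of cells of the early mouse embryo, and it had 6.25, 6.01 and 6.03 in the KSR lines, 6.01 in iPS cells in 2i and 6.25 in ES cells, against 4.89 and 4.91 in MEFs in iCD1 and FBS. Zfp750, a regulator of epidermal differentiation, had 5.37, 5.50 and 4.77 in the KSR lines, 4.67 in iPS cells in 2i and 5.23 in ES cells, against 3.77 and 4.33 in MEFs in iCD1 and FBS. Both stayed above the MEFs on every pluripotent array. Just under 2-fold lay Zfp626 at 0.86, Zfp781 at 0.85 and Zfp638 at 0.82.

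Zfp809, Zfp706 and Zfp644, members with known roles in silencing or stem cell state, differed by less than 2-fold. Zfp809, which recognises the primer binding site of murine leukaemia virus proviruses in ES cells, had 7.49, 7.48 and 7.28 in the KSR lines, 7.27 in iPS cells in 2i and 7.17 in ES cells, against 7.08 and 6.38 in MEFs in iCD1 and FBS. Its difference was 0.69 ± 0.11, and the 2 MEF values were 0.71 apart. Zfp706, which in mouse ES cells promotes exit from self-renewal, had 9.63, 9.59 and 9.79 in the KSR lines, 9.59 in iPS cells in 2i and 9.77 in ES cells, against 8.92 and 8.96 in MEFs in iCD1 and FBS. Zfp644, a partner of the histone methyltransferases Ehmt1 and Ehmt2, had 7.87, 7.63 and 7.59 in the KSR lines, 7.22 in iPS cells in 2i and 7.03 in ES cells, against 7.70 and 7.53 in MEFs in iCD1 and FBS. Zfp706 lay above both MEF values on every pluripotent array, while Zfp644 overlapped them. These 3 were named for their roles after their values were seen.

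At the lower end of the family the differences were smaller. Zfp618 had 5.23, 5.48 and 5.24 in the KSR lines, 5.00 in iPS cells in 2i and 4.73 in ES cells, against 6.78 and 6.45 in MEFs in iCD1 and FBS, a difference of -1.30 ± 0.13. Its human counterpart binds the hydroxymethylcytosine reader UHRF2. Zfp637 had 5.19, 5.25 and 5.31 in the KSR lines, 5.14 in iPS cells in 2i and 5.13 in ES cells, against 6.70 and 6.35 in MEFs in iCD1 and FBS, a difference of -1.28 ± 0.09. Zfp608 had 5.32, 5.88 and 4.78 in the KSR lines, 4.39 in iPS cells in 2i and 4.74 in ES cells, against 6.68 and 6.23 in MEFs in iCD1 and FBS, a difference of -1.13 ± 0.38. The lowest and highest of the lines were 1.11 apart in Zfp608, close to its difference from the MEFs. Zfp672 at -1.11 and Zfp827 at -1.03 completed the members 2-fold or more lower. Zfp827's human counterpart recruits a nucleosome remodelling complex to telomeres. A second probe set of Zfp672 gave 0.19, so its direction depends on the probe set, and the mean of both gave -0.46, under 2-fold. The other 5 of the 10 lowest were Zfp768 at -0.90, Zfp709 at -0.74, Zfp746 at -0.71, Zfp869 at -0.65 and Zfp651 at -0.64. Zfp746 is the Parkin substrate that represses Pgc1 alpha in neurons.

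Set array by array, 42 of the 139 members (30.2%, against 21.9% of all genes) had all 5 pluripotent values above both MEF values, and 19 (13.7%, against 22.0%) had all 5 below. The other 78 overlapped. With a gap of at least 1 log2 unit between the groups, 12 members (8.63%, against 3.08% of all genes) lay above and Zfp637 (0.719%, against 4.66%) below.

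The same members were set against MEFs in each pluripotent group. In iPS cells in 2i, 16 members were 2-fold or more higher and 4 lower, against 7.2% and 10.1% of all genes, with a median of 0.13. In ES cells in 2i, 17 were higher and 7 lower, against 6.77% and 9.26%, with a median of 0.19. These comparisons share the 2 MEF arrays with the KSR comparison. Zfp980 was 7.05 higher in the KSR lines, 6.50 in iPS cells in 2i and 6.79 in ES cells, each relative to the MEFs.

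Members that lie close together were set side by side. Groups of 3 or more members with successive starts under 200 kb apart numbered 13 and held 56 members. In 2 groups every member was higher in the KSR lines than in MEFs, in 1 every member was lower and in 10 both signs occurred. Many of these values are close to 0, so the signs are a description only. Zfp982, Zfp985 and Zfp979 formed the group with the highest median, 3.04. Zfp819, at 2.28, lay beside Zfp658 at -0.24 and Zfp719 at -0.28 on chromosome 7. Zfp961, at 1.90, lay beside Zfp709 at -0.74, Zfp882 at 0.25 and Zfp617 at 0.18 on chromosome 8. In the largest group, 11 genes of chromosome 17, the values ran between -0.49 and 1.34, with Zfp944 at the top.

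**Figure D4:**
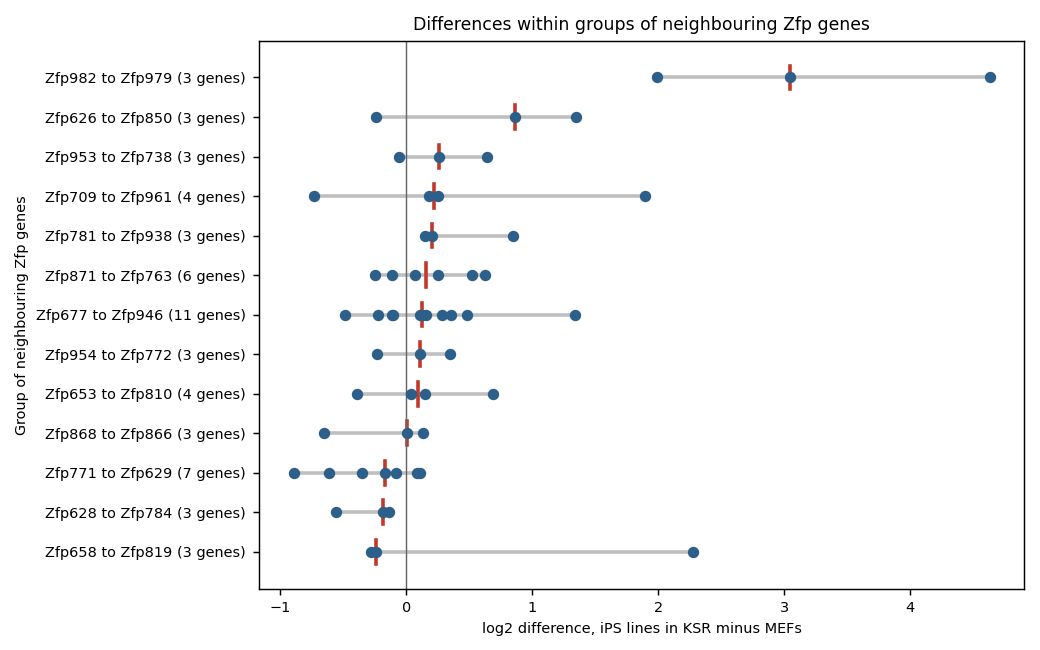
Log2 difference between the iPS lines in KSR and MEFs for each member (points) of the 13 neighbour groups, ordered by group median (red bars), with a grey line over the range. The group of Zfp982, Zfp985 and Zfp979 lies between 1.99 and 4.63, and 10 groups hold members on both sides of 0.

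Short promoter motifs were counted on both strands in the windows of 120 members and of all 27025 genes with one. The CCAAT box, searched as its letters CCAAT, was in 57.5% of member windows and 41.1% of all. The GC box, searched as GGGCGG, was in 50.8% of member windows and 38.2% of all. The TATA box, searched as TATAAA, was less frequent, in 7.5% of member windows and 15.7% of all. The octamer that Oct4 recognises, searched as ATGCAAAT, was in 1 member window (0.833%) and in 1.97% of all. No motif contains another, and a match describes letters only.

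Cofactor genes of KRAB zinc finger proteins, 18 of them measured, were set beside the family. The list was drawn up with earlier results of these data known, so its counts are a description. Of the 18, limma with adjustment over all genes called 10 higher in the KSR lines than in MEFs (55.6%, against 12.1% of all genes). It called 1 lower (5.56%, against 14.3%), which makes 61.1% in all, against 26.4%. The median difference was 0.64. Trim28, the corepressor itself, had 11.27, 10.99 and 11.26 in the KSR lines, 10.97 in iPS cells in 2i and 10.69 in ES cells, against 9.70 and 9.48 in MEFs in iCD1 and FBS. It was higher by 1.58 ± 0.13 (limma adjusted p = 0.0092). Setdb1 was higher by 1.14 ± 0.16 (limma adjusted p = 0.0196), Morc3, a silencing factor of the same targets, by 1.58 ± 0.22 and Dnmt3b, a de novo DNA methyltransferase, by 3.57 ± 0.56. Smarcad1, Uhrf1, Cbx1, Hdac1, Dnmt1 and Sumo2 were the other genes called higher, by 0.55 to 1.33. By direction alone, 16 of the 18 were higher (88.9%, against 50.1% of all genes) and 2 lower. Among those not called were Dnmt3a at 0.60 and Hdac2 at -0.27. Chd3, a remodeller of the NuRD complex, fell by 2.19 ± 0.24 (limma adjusted p = 0.0131). Limma called 0 of the 18 without line O4-1 or without line O4-2, although 11 and 12 of them had p under 0.05 before adjustment. It called 7 when line O4-4 was left out, where 13.9% of all genes were called, and 7 with the FBS MEFs alone, where 14.9% were.

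The most like gene sets were described in the same way. The 178 Zfp genes with numbers below 600 had a median of -0.01. Of them, 16 (8.99%, against 7.43% of all genes) were 2-fold or more higher and 9 (5.06%, against 9.46%) lower. Limma called 52 of the 178 (29.2%, against 26.4% of all genes). The 35 Zbtb genes, which join zinc fingers to a BTB domain, had a median of 0.14. Among them, 4 (11.4%, against 7.43%) were 2-fold or more higher and 1 (2.86%, against 9.46%) lower, and 8 (22.9%, against 26.4%) were called. Both counts were 0 without line O4-1 or without line O4-2, as for all genes. They were 23 of 178 and 2 of 35 without line O4-4, where 13.9% of all genes were called. With the FBS MEFs alone they were 28 and 4, where 14.9% were.

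The family was not chosen on differences between media. Set against the 3 KSR lines, iPS line O4-1 in 2i gave 0 members called by limma, where 0.0% of all genes were called, and 9 members (6.47%, against 6.72% of all genes) had an unadjusted p under 0.05. ES cells in 2i gave 0 called of 0.0% of all genes, with 13 members (9.35%, against 8.76% of all genes) under 0.05 unadjusted. The lowest adjusted p among members was 0.727 for iPS cells and 0.571 for ES cells, in limma. The members' medians were -0.08 for iPS cells in 2i and -0.06 for ES cells in 2i. One array stood on the 2i side of each, so a p that misses the threshold does not show that the media act alike.

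In size, 1 member (0.719%) was 2-fold or more lower in iPS cells in 2i, against 0.471% of all genes, and none was higher, against 0.181%. In either direction 0.652% of all genes passed. That member, Zfp951, had 3.71 in 2i, against 5.20, 3.99 and 4.97 in the KSR lines, a difference of -1.01 ± 0.56. The KSR lines spread by more than that difference. In ES cells in 2i no member was 2-fold apart, against 1.6% of all genes, 0.797% higher and 0.808% lower. The widest were Zfp820 at 0.81 ± 0.37 and Zfp638 at -0.75 ± 0.21. Zfp638 is a splicing regulator that also takes part in silencing unintegrated retroviral DNA. Within the chromosome 4 stretch, the differences in iPS cells in 2i ran between -0.66 and 0.36 and in ES cells between -0.69 and 0.66, both relative to the KSR lines.

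Between the MEFs, 94 of the 139 members (67.6%) were higher in iCD1 than in FBS, against 45.8% of all genes. This is 1 array against 1 and has no test. The median was 0.22, against -0.02 over all genes. Zfp genes with numbers below 600 had 124 of 178 (69.7%) higher, and Zbtb genes 11 of 35 (31.4%), so a majority on the iCD1 side was not found in every zinc finger set. At 2-fold or more higher stood 2 members, against 1.7% of all genes, and none was lower, against 0.998%, where 2.7% of all genes passed in either direction. Zfp931 had 4.99 in iCD1 and 3.62 in FBS, and Zfp991 had 5.65 in iCD1 and 4.60 in FBS. The iCD1 value of Zfp931 lies below that array's median of 5.27 over all genes. Shared probe sets that name Zfp931 had 7.59 to 9.30 in iCD1 and 7.41 to 9.13 in FBS. Those that name Zfp991 had 5.22 to 8.98 and 4.67 to 8.45, and none of these shared probe sets was 2-fold apart. The 7 members of the chromosome 4 stretch were all higher in iCD1, by 0.38 to 1.04. Zfp600 (1.66 in iCD1 and 1.28 in FBS) and Zfp980 (2.62 and 2.01) were low on both arrays. Close copies may also share probe signal, so the 7 are not separate observations.

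**Figure D5:**
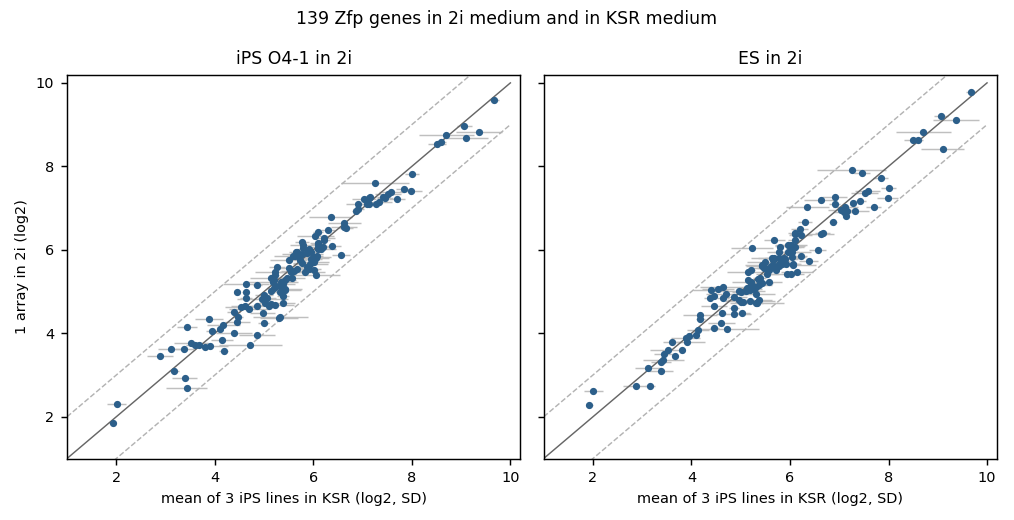
Log2 expression of the 139 members on 1 array in 2i (vertical axis, iPS line O4-1 left and ES cells right) against the mean of the 3 KSR lines (horizontal axis, bars are SD between lines). The solid line marks equal values and the dashed lines 2-fold, outside which only Zfp951 lies, in iPS cells.

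ES and iPS cells in 2i were compared next, 1 array against 1. Zfp939, with 5.04 in ES cells and 4.01 in iPS cells, was the 1 member 2-fold apart, higher in ES cells, against 0.672% of all genes higher and 0.978% in either direction. The median was 0.02.

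The 3 KSR lines differed most in Zfp600, whose SD between them was 0.70, in Zfp951 with 0.65 and in Zfp640 with 0.56, against a median SD of 0.19 over the members. Set against line O4-1, line O4-2 had 84 of 139 members lower, with a median of -0.12 against 0.00 over all genes. Higher in line O4-2 were 39.6% of members and 50.1% of all genes. In that line 3 members were 2-fold lower: Zfp600 at -1.30, Zfp951 at -1.21 and Zfp640 at -1.01. These are 2.16% of members, against 0.612% of all genes 2-fold apart. Line O4-4 had 85 lower than line O4-1, with a median of -0.09 against 0.00 over all genes. Higher in line O4-4 were 38.8% of members and 49.2% of all genes. In it 2 members were 2-fold lower (1.44%, against 1.55%), Zfp600 at -1.08 and Zfp799 at -1.02. Line O4-4 against line O4-2 gave 1 member (0.719%, against 2.83%), Zfp608 at -1.11. Here 76 members were higher and 63 lower, with a median of 0.03 against 0.00 over all genes. These are single arrays with no test. Line O4-1 in 2i against the same line in KSR had 87 members lower, with a median of -0.14 against 0.01 over all genes. Higher in 2i were 37.4% of members and 51.9% of all genes. In 2i 5 members were 2-fold lower: Zfp951 at -1.49, Zfp867 at -1.28, Zfp982 at -1.20, Zfp980 at -1.07 and Zfp869 at -1.03. That makes 3.60% of members, against 1.43% of all genes. This comparison and those of lines O4-2 and O4-4 with line O4-1 all subtract the same O4-1 array in KSR. They are therefore not separate observations, and a high value on that array lowers each of them. Against the mean of the 3 KSR lines, these 5 members differed by -1.01, -0.88, -0.66, -0.55 and -0.93, in the same order.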

How the data were processed

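RNA of 7 cultures was measured on 7 Affymetrix arrays. Per the labels' protocols, 100 ng of total RNA per sample was labelled with the whole transcript assay. The authors deposited a log2 expression value for each probe set. The submitters' processing notes name RMA and Partek, whose versions are not stated in them. RMA subtracts background and equalises the arrays, so the size of differences from very low values depends on it.

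Of 28853 probe sets, 21789 have 1 gene symbol in the platform annotation, 1621 have several and 5443 are unnamed. For each gene the single-symbol probe set brightest on average was used, without a filter on low values, which left 19938 genes. RefSeq (GRCm38.p6) matched 138 of the 139 members by gene ID. It lists 34 further symbols in this range, 20 named only on probe sets of several symbols and 14 on none. Promoter windows are RefSeq's.

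Groups came from titles and growth conditions. Differences were fitted with limma 3.58.1 in R 4.3.3 over all genes in 5 groups (lmFit, contrasts.fit and eBayes), two-sided, with Benjamini-Hochberg adjustment at 0.05. Only the KSR lines are replicated. They gave 2 residual degrees of freedom, to which the prior added 1.62, so p-values measure the spread between these lines, which is assumed for every group, and the small number of arrays limits precision. Comparisons of 1 array with 1 have no test. The script was tested on simulated data. All members could be named, and the 10 largest and 10 smallest KSR minus MEF differences were to be described. The members and the lists were chosen with earlier results of these data known. Protein features were not used here. Alternatives were the normalization, a filter on dim genes, the probe set rule, trended and robust variance, each line left out and each MEF array alone.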

Additional observations from a re-analysis of the deposited data

How the results depend on the processing

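The precision is limited by 3 KSR lines and single arrays elsewhere. Members called between KSR lines and MEFs, 32 as reported, ranged between 0 and 16 when 1 line was left out (0.0% to 13.9% of all genes). They were 18 with the iCD1 MEFs alone (12.9%, against 19.8% of all genes). Quantile normalization gave 43 (30.9%, against 29.8%) and robust variance 40 (28.8%, against 29.6%). The count was 21 of 121, against 26.4% of all genes, without the members that a probe set of several symbols also names, an alternative chosen after seeing the data. Without those members the 2-fold count fell to 13 of 121, against 22 of 139, where 16.9% of all genes passed. The 11 cofactor calls ranged between 0 and 7 when 1 line was left out (0.0% to 13.9% of all genes) and were 7 with the FBS MEFs alone (14.9% of all genes). The members' median difference of 0.15 was 0.22 after quantile normalization, 0.23 with dim genes filtered out, 0.26 with the FBS MEFs alone and 0.072 with the iCD1 MEFs alone. Filtering dim genes left 1 member 2-fold apart between the MEF media and 0 between ES and iPS cells. Requiring a gap of 1 log2 unit left 13 non-overlapping members, against 61. Omitting members or asking for a gap can only lower a count. The dim filter raised the members called to 37 of 87 (42.5%, against 51.0% of all genes kept). It kept genes by their mean over all 7 arrays, 5 of them pluripotent. A member low in MEFs can pass it through its pluripotent values, as Zfp600 did with a MEF mean of 1.47. The median and the calls under this filter are therefore tilted towards members high in pluripotent cells, and nothing is read from them. For the other values the cause was not tested. The differences of the 20 named members kept their direction in the alternatives run, with 15 of 156 values moved by more than the spread between lines. The second probe set of Zfp672, of opposite sign, was not an alternative of its own, and the mean of its probe sets gave -0.46, against -1.11. The 2i comparisons gave 0 calls in every alternative run. No paired analysis was possible because the groups compared share fewer than 2 replicate numbers, line O4-1 being the only one in both KSR and 2i.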
